A study of Homo sapiens with 20 samples.

Results

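The RUNX1 sites strengthened to high occupancy are 475 of the 26642 RUNX1 peaks measured in THP-1 cells. They are peaks that control cells already held, at a mean of 10 CPM (reads in the peak per 1000000 reads in all peaks) or more, and that stood at 70 CPM or more after PU.1 knockdown, with a ratio of knockdown to control mean of 1.5 or more. The CPM values of a library are scaled to its own total, so they measure how the reads of a library were shared out among peaks and not the absolute amount of bound RUNX1. The sites were chosen by these control and knockdown values, so their levels and ratios are given as a description, without a test. Position, neighbours, genes and batch terms were not used in the choice.

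THP-1 is a human monocytic leukemia cell line. Cells carried either an inducible shRNA against PU.1 (the knockdown) or a scramble shRNA (the control), and doxycycline was added to both to switch the cassette on. RUNX1 chromatin immunoprecipitation followed by sequencing (ChIP-seq) was carried out on 6 control and 6 knockdown cell line replicates in 2 experimental rounds, called batches, with 3 control and 2 knockdown libraries in batch 1 and 3 control and 4 knockdown libraries in batch 2. All groups derive from 1 cell line, the spread between replicates is the spread between immunoprecipitations of it, and neither the level of PU.1 nor that of RUNX1 was measured in these libraries. The comparison addresses where RUNX1 sits on chromatin once PU.1 is reduced. The 8 IgG libraries of the series were not analysed here.

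RUNX1 is a transcription factor of blood stem cells, megakaryocytes and lymphocytes that contacts DNA through its Runt domain, with CBFB as its partner, and recognises the core TGTGGT or, less often, TGCGGT. PU.1, the product of SPI1, is an ETS factor of myeloid and B cells that binds purine-rich sites such as GAGGAAGT and can hold RUNX1 as a partner on shared elements. A peak height in ChIP-seq reflects how often, and in how many cells, the factor was crosslinked at the place.

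The reference used here holds promoter windows only, that is 250 bases before to 50 after each listed RefSeq transcription start on GRCh38.p14, and 27 of the 475 sites overlapped 39 such windows. A RUNX core (TGTGGT or TGCGGT, on either strand) lay in 13 of the 39 windows (33.3%), against 35.5% of 1255 windows under strong unchanged peaks, 25.1% of 8302 windows under any peak and 19.6% of all 34943 windows. The cores differed when read apart: TGTGGT was in 28.2% of the 39 windows (11), against 15.4%, 12.4% and 13.1% in the same order, and TGCGGT in 12.8% (5), against 23.7%, 14.2% and 7.27%. Of the 39 windows, 31 lay wholly inside a strengthened peak and the rest in part, so a core can lie outside the peak. The core of the EML2 window that starts at chr19:45645314 does so, as the peak begins at chr19:45645525. Windows can overlap and are not independent. Those of LOC105376482 that start at chr10:31134143 and chr10:31134155 hold the same TGCGGT match, counted in each. Strong unchanged peaks are the 1675 peaks with 70 CPM or more in both groups and a ratio of at least 0.8 and at most 5/4. The PU.1 octamer GAGGAAGT was in 1 of the 39 windows (2.56%) and in 2.59% of all windows. Neither the CEBP palindrome TTGCGCAA, held by 0.152% of all windows, nor the GATA core TGATAA, held by 7.55%, was found in the 39. A match is a string of letters and does not show that a factor bound there. The 5 windows below are shown because each belongs to a protein-coding gene, lies wholly inside a strengthened peak and holds a RUNX core. Capitals mark the core, as TGTGGT or as its reverse complement ACCACA, and each sequence reads 5′ to 3′ on the strand of the gene.
MLC1, chr22:50085826-50086125, minus strand: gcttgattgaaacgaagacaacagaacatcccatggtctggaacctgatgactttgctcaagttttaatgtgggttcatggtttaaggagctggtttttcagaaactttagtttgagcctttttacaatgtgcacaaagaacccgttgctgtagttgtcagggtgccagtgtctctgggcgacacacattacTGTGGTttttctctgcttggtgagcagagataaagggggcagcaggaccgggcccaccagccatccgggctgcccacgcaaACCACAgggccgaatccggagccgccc
SH2B1, chr16:28863593-28863892, plus strand: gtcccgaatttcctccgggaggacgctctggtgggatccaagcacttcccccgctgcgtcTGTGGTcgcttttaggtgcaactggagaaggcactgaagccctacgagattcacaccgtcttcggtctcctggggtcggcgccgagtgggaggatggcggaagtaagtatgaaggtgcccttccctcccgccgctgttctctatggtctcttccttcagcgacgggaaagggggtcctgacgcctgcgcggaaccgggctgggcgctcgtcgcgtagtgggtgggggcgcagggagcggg
TSPAN14, chr10:80459035-80459334, plus strand: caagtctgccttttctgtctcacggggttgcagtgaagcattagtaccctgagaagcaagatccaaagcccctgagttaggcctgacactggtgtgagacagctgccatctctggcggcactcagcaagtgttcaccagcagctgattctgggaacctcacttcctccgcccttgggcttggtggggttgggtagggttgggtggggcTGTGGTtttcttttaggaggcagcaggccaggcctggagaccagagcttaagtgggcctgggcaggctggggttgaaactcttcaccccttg
GPR158, chr10:25174751-25175050, plus strand: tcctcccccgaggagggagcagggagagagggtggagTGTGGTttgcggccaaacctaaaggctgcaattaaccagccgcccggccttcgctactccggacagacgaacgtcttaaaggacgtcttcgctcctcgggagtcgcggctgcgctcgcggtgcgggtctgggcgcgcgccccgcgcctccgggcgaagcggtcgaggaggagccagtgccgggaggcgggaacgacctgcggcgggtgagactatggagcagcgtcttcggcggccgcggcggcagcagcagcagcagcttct
SMAD3, chr15:67098429-67098728, plus strand: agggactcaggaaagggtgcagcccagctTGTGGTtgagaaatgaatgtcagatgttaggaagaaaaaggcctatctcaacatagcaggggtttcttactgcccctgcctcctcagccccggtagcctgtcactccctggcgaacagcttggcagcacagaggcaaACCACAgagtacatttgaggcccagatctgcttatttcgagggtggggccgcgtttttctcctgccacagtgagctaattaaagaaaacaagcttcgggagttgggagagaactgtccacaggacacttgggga

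The start of MLC1, which encodes a membrane protein of astrocytes, carried the strongest of these 5 sites. Its peak, chr22:50084557-50086823, ranged over 108, 124 and 141 CPM (lowest, median and highest control library) and over 192, 205 and 234 CPM in knockdown libraries. SH2B1, an adaptor of receptor tyrosine kinase and JAK2 signalling, had a peak at chr16:28862261-28864147 with 90.4, 96.5 and 113 CPM in control and 143, 159 and 181 CPM in knockdown libraries. At both sites every knockdown library stood above every control library. TSPAN14, a tetraspanin that acts with the protease ADAM10, held 95.9 ± 12.2 (SD, n = 6) CPM in control and 149 ± 7.64 CPM in knockdown, and its window is also the one with the PU.1 octamer. GPR158, an orphan G protein-coupled receptor, went from 58.8 ± 10.9 to 103.6 ± 15.1 CPM. SMAD3, the signal transducer of TGF-β and activin receptors, had the lowest control level of the 5, with 34.5, 40.4 and 50.7 CPM in control and 69.6, 81.6 and 95.3 CPM in knockdown libraries, and its groups did not overlap either.

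Library totals over peaks ran from 630247 to 1199004 reads in control and from 938745 to 1719840 reads in knockdown, and the median raw count of a strengthened site was 32 to 64 reads per control library and 91 to 166 reads per knockdown library. No strengthened site was at 0 in any library. The lowest count was 4 reads, and 48 reads in a knockdown library. The 475 sites took 2.60% ± 0.0823 (SD, n = 6) of all reads in peaks in control and 5.09% ± 0.158 in knockdown, with 2.47% to 2.72% in single control libraries and 4.80% to 5.27% in single knockdown libraries. The strong unchanged peaks took 18.9% ± 0.445 and 18.7% ± 0.302. The knockdown libraries were on the whole deeper. The share of the strong unchanged peaks differed between the groups by less than 1 SD. These peaks were chosen for a ratio near 1 in the same libraries, so their like share follows from the choice and tests neither depth nor scaling.

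Among the strengthened sites the control mean ran from 10.2 to 231.7 CPM, with a median of 49.0 and quartiles of 40.5 and 64.7 CPM. In knockdown it ran from 70.0021 to 383.6 CPM, with a median of 96.2 and quartiles of 79.3 and 118.6 CPM. The ratio of means ran from 1.5004 to 7.02 with a median of 1.86. It was 2 or more at 193 sites, 3 or more at 46 and 4 or more at 17. The fitted log2 fold change had a median of 0.87 over the sites with a median standard error of 0.14.

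**Figure D1:**
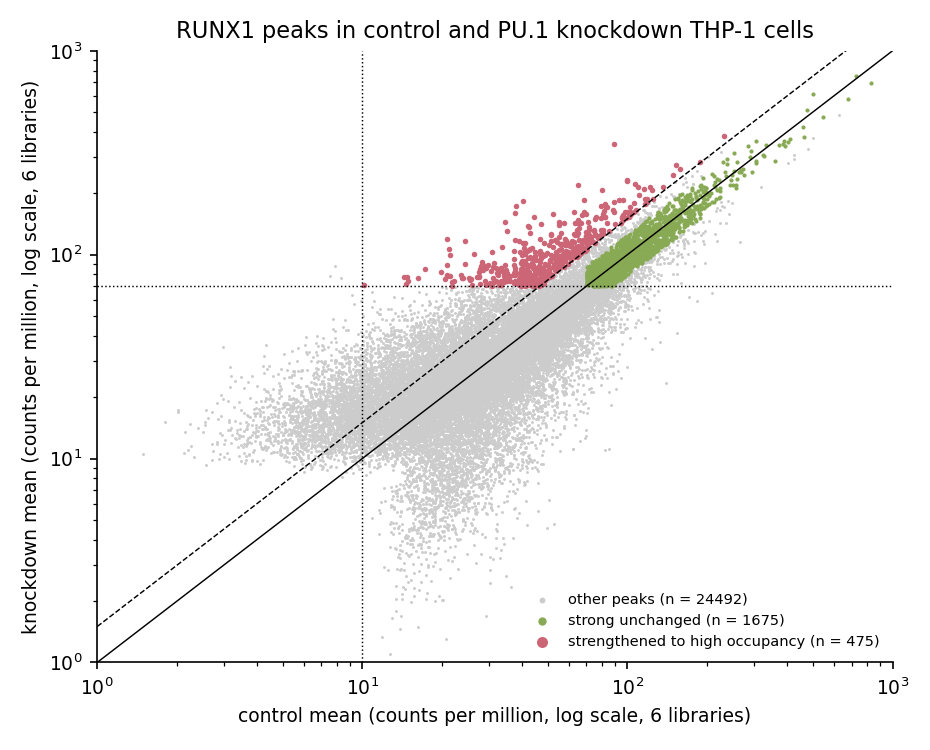
Mean CPM of each of the 26642 peaks in 6 control libraries (horizontal, log scale) and 6 knockdown libraries (vertical, log scale). Red points are the 475 strengthened sites, above the dashed line (ratio of 1.5) and the dotted thresholds of 10 and 70 CPM, green points the 1675 strong unchanged peaks and grey points all others, and the solid line marks equal levels. The quartiles of the red points in control are 40.5 and 64.7 CPM.

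Every strengthened site was called gained by DESeq2 over the whole table (adjusted p under 0.05 and fold change over 1.1), against 21.3% of all 26642 peaks and 19.8% of the peaks that were not strengthened sites. The rule used this same contrast, so nothing is read from that count. Likewise, at 447 of the 475 sites every knockdown library lay above every control library, against 12.4% of all peaks. The rule favours such separation, so it is only a description where it is stated for single sites here. At 28 sites the groups overlapped. The strongest of the 28 was at BAHCC1, whose highest control library (146.8 CPM) just passed its lowest knockdown library (146.6 CPM).

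The strongest sites in knockdown cells lay mostly inside genes, at levels well above the threshold of 70 CPM. The highest was within UNC5A, a netrin receptor, at chr5:176870477-176873602, with 197, 237 and 272 CPM in control and 341, 387 and 419 CPM in knockdown libraries, a ratio of 1.66. Its nearest gene end is that of HK3, a myeloid hexokinase, 7267 bases away. TMEM255B, a transmembrane protein gene on chromosome 13 (chr13:113808141-113809938), combined a high level with a high ratio. Its control libraries held 79.3, 86.1 and 101 CPM and its knockdown libraries 313, 337 and 431 CPM, a ratio of 3.93. The site between genes nearest to MLN, the gene of the gut hormone motilin (chr6:33856208-33858358), went from 187.5 ± 20.8 to 285.0 ± 9.22 CPM. This site was 52205 bases from MLN and overlapped part of the promoter windows of LOC105375027, which is not a protein-coding gene. UBAC1, a subunit of a ubiquitin ligase (chr9:135938950-135940518), went from 151.8 ± 36.5 to 276.0 ± 23.3 CPM. Its control libraries were spread from 95.2 to 188.5 CPM, and none of them reached the lowest knockdown library at 244.6 CPM.

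The next strongest sites had ratios between 1.65 and 3.40. TNFAIP8L3, a phosphoinositide transfer protein, went from 157.4 ± 14.4 to 262.8 ± 19.8 CPM, and ALG1L2 from 148.9 ± 13.0 to 245.9 ± 23.98 CPM. TEX36 (chr10:125604947-125605807) held 99.2 ± 7.66 and 232.9 ± 24.6 CPM. These sites lay within the named genes. DPF1, a subunit of neuronal BAF chromatin remodelling complexes (chr19:38213634-38215171), had control libraries of 93.8, 101 and 104 CPM and knockdown libraries of 168, 248 and 264 CPM. SGSM1, a modulator of small GTPases, went from 107.2 ± 9.69 to 223.1 ± 21.0 CPM, and LMLN, a metalloprotease, from 64.9 ± 8.84 to 220.8 ± 40.3 CPM. In all of the 10 strongest sites the 2 groups of libraries did not overlap.

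**Figure D2:**
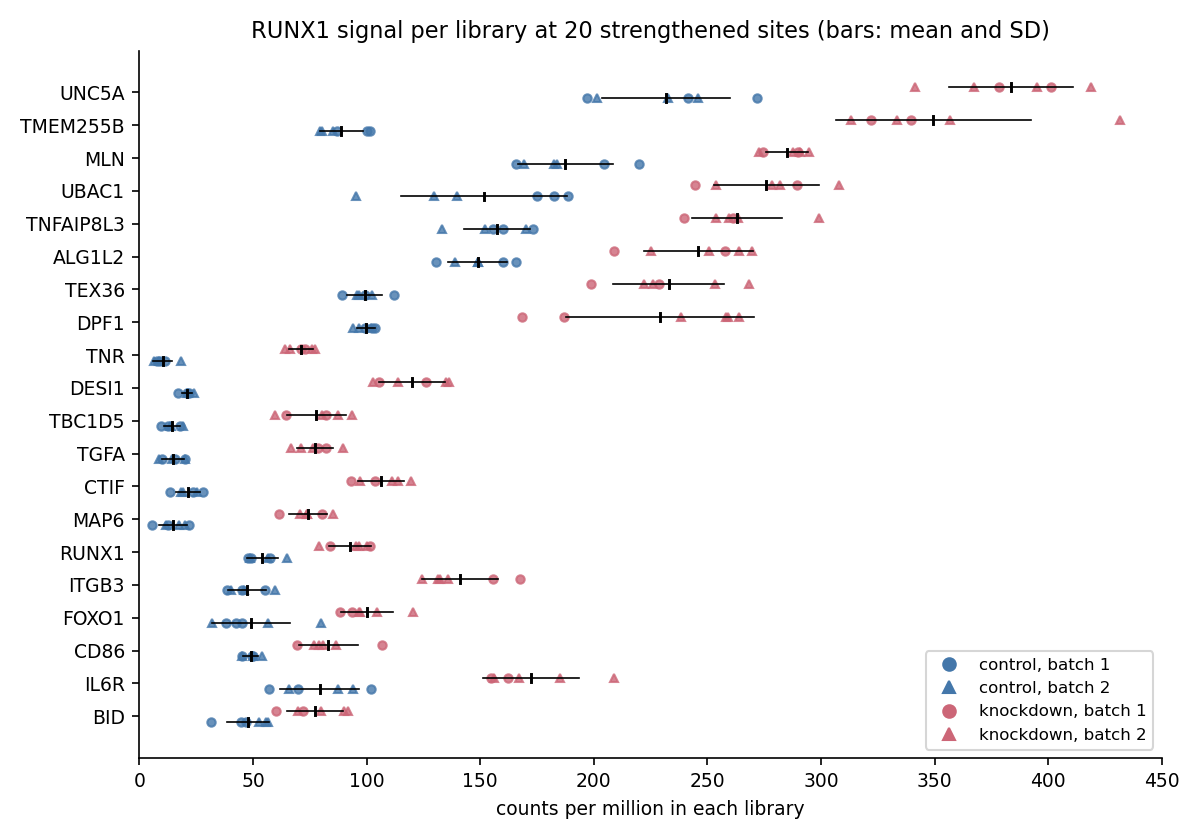
CPM in each library at 20 named strengthened sites (horizontal axis, CPM, from 0; 1 row per site). Blue and red mark control and knockdown as in the legend, circles are batch 1 libraries and triangles batch 2 libraries, and bars are the group mean and SD (n = 6 each). The groups stand apart at each of the 20 sites, and TMEM255B has the widest gap, with control libraries up to 101 CPM and knockdown libraries from 313 CPM.

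Prior binding differed widely over the sites. In control cells, 85 of the 475 (17.9%) already had 70 CPM or more and 72 were in the top decile of all peaks, whereas 39 were below the median of all peaks. The median site stood at percentile 76.6 of all peaks in control and 94.9 in knockdown. Of the 100 highest peaks in control 1 was a strengthened site, and of the 100 highest in knockdown 16 were. For the 500 highest these numbers were 6 and 84, and for the 1000 highest 20 and 168. Of the 2937 peaks with 70 CPM or more in knockdown, the 475 sites made up 16.2%.

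By control level, 8 sites started from 10 to 20 CPM (0.133% of the 6031 peaks in that range), 106 from 20 to 40 CPM (1.09% of 9732), 276 from 40 to 70 CPM (4.78% of 5770) and 85 from 70 CPM or more (2.87% of 2957). Median ratios in these ranges were 4.96, 2.54, 1.78 and 1.66, an order that the threshold of 70 CPM sets in part, since a weak site must rise more to reach it. Median knockdown levels were 77.0, 79.6, 96.0 and 153.3 CPM. Median peak widths were 885.5, 1039, 1147.5 and 1514 bases. Width was no term of the rule, but CPM counts all reads in a peak and is not divided by its width. A wider peak thus tends to fall in a higher range.

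The site with the largest ratio also had nearly the least prior binding that the rule admits. It lay within TNR, which encodes the extracellular matrix protein tenascin-R, at chr1:175479378-175480316, with 6.35, 8.76 and 18.2 CPM in control and 63.9, 72.1 and 77.2 CPM in knockdown libraries, a ratio of 7.02. DESI1, a deSUMOylating peptidase (chr22:41603724-41604735), followed with 16.9, 21.2 and 23.8 CPM against 103, 120.0 and 136 CPM, a ratio of 5.73. CTIF, a factor of the first round of translation (chr18:48749856-48751027), held 13.5, 21.3 and 28.2 CPM against 93.1, 107 and 119 CPM. At these 3 sites the lowest knockdown library was over 3 times the highest control library. Sites between genes nearest to TBC1D5, a GTPase activator of endosomal sorting, and to TGFA, a ligand of the EGF receptor, went from 14.4 ± 3.61 to 77.9 ± 13.1 and from 14.8 ± 4.84 to 77.4 ± 7.99 CPM. The TBC1D5 site was 284220 bases from the gene. A site within MAP6, a microtubule stabiliser, went from 14.9 ± 6.04 to 74.2 ± 8.2 CPM, and those near CEP19, BAIAP3, LOC128966744 and PDZRN3 had ratios of 4.93, 4.91, 4.75 and 4.73.

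At the thresholds themselves the neighbours were close. TNR at 10.2 and TBC1D5 at 14.4 CPM in control were the lowest inside the rule. Only 3 peaks met the knockdown threshold with less than 10 CPM in control, at FOXP4 (8.31 CPM in control and 76.9 in knockdown), TMEM120B (7.87 and 88.2) and H6PD (7.58 and 78.8). For the knockdown threshold, APLP1 at 70.0021 and CFDP1 at 70.0666 CPM were inside and SPATA31C1 at 69.9992 and CCDC194 at 69.9768 CPM outside. For the ratio, PCSK6 at 1.5004 and FCER1G at 1.5006 were inside and a peak at BIK (chr22:43125541-43128705, 1.49997) outside.

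The ratio of the strengthened sites was of like size in both batches, with medians of 1.85 in batch 1 and 1.90 in batch 2. It was 1.5 or more in both batches at 384 sites, below 1.5 in batch 1 at 66 and below 1.5 in batch 2 at 25. The lowest single ratio was 1.08 in batch 1 and 1.23 in batch 2. A test of the difference in knockdown effect between batches (DESeq2 product term, which the rule did not use) called 0 of the 475 sites and 0% of all peaks, and edgeR called 0 of the sites too. At an unadjusted p under 0.05 there were 28 sites (5.89%), 21 with the larger effect in batch 2, against 2.51% of all peaks and 2.93% of strong unchanged peaks. UBAC1, with ratios of 1.47 and 2.31, and DPF1, with 1.74 and 2.61, were among the 28. The lean to batch 2 was not particular to the sites. At that level the term was positive at 44 of 49 strong unchanged peaks and at 377 of 669 of all peaks. The rule also took 4 of its 6 knockdown libraries from batch 2, so its choice was not free of batch. The same fit compared the batches within control libraries: 0 of the 475 sites were called by DESeq2 and 0 by edgeR, with 26 (5.47%) at an unadjusted p under 0.05, against 0.00751% of all peaks called and 5.12% at an unadjusted p under 0.05.

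**Figure D3:**
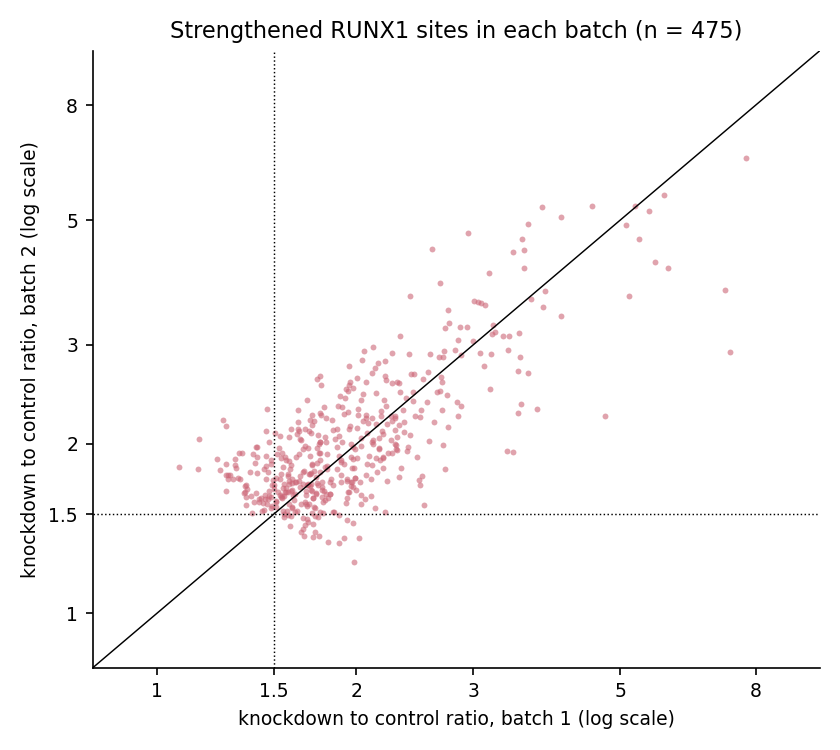
Ratio of knockdown to control mean of the 475 strengthened sites in batch 1 (horizontal, log scale; 3 control and 2 knockdown libraries) and batch 2 (vertical, log scale; 3 control and 4 knockdown libraries). Dotted lines mark 1.5 and the solid line equal ratios. The points follow the solid line with medians of 1.85 and 1.90, and 384 of them lie at or above 1.5 on both axes.

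To measure the gain in libraries whose values the rule had not used, it was applied to 1 batch and the chosen peaks were tested in the other with DESeq2. Both batches had a part in the peak table itself, since peaks were kept where reproducible between batches. In batch 1, 463 peaks met the rule, 366 of them among the 475. In batch 2, 394 of these 463 (85.1%) were called gained and 0 lost, against 12.8% of all peaks gained there, and 460 were higher in knockdown. Their median ratio was 1.87 in the batch that chose them and 1.82 in the other. In batch 2, 541 peaks met the rule, 440 of them among the 475, and in batch 1, 310 of the 541 (57.3%) were called gained and 0 lost, against 5.38% of all peaks, with 539 higher in knockdown and a median ratio of 1.76 there against 1.87. The calls in batch 1 rest on 2 knockdown libraries: without knockdown replicate 1 the count was 48, without knockdown replicate 2 it was 63, without control replicate 2 it was 181 and without control replicate 3 it was 153. With edgeR the counts were 429 and 414. Of the chosen peaks, 336 met the rule in both batches.

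Strengthened sites were mostly away from promoters. Of the 475 sites, 41 were within 1 kb of the start or the far end of a protein-coding gene (8.63%, 95% Wilson interval 6.43 to 11.5), against 45.3% (42.9 to 47.6) of strong unchanged peaks, 24.4% of all peaks and 6.07% (5.26 to 6.996) of the 2916 peaks that met the control and ratio thresholds but stayed below 70 CPM in knockdown. Intervals cover counting error only, and neighbouring peaks are not independent. Within 1 kb of a transcription start, leaving out chromosome 8, whose starts were not used here, and counting listed starts only, lay 18 of 448 sites (4.02%), against 42.9% of strong unchanged peaks and 4.02% of the weaker gained peaks. Over 10 kb from any start lay 347 of 448 (77.5%), against 45.7% and 79.3%, and the median distance to a start was 30276 bases, against 6209 and 37341. By distance to genes the strengthened sites thus resembled the weaker gained peaks more than the peaks of equal strength.

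Where a strengthened site did lie at a gene end, it was more often the far end. Of the 33 with a known strand, 21 (63.6%, interval 46.6 to 77.8) were at the 3′ end with no start within 1 kb, against 39 of 647 (6.03%) strong unchanged peaks and 54 of 130 (41.5%, interval 33.4 to 50.1) weaker gained peaks. The centre of 263 sites (55.4%) was inside a protein-coding gene, against 58.5% and 52.3%. Of these 263, 154 (58.6%) were over 10 kb from any gene end, against 32.6% of strong unchanged and 66.5% of weaker gained peaks within genes. Peaks of the strengthened sites had a median width of 1144 bases, between the 769 of weaker gained peaks and the 1703 of strong unchanged peaks. Per kilobase of peak they held a median of 43.1 CPM in control and 85.6 in knockdown, above the 60.0 CPM per kilobase of strong unchanged peaks in knockdown.

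**Figure D4:**
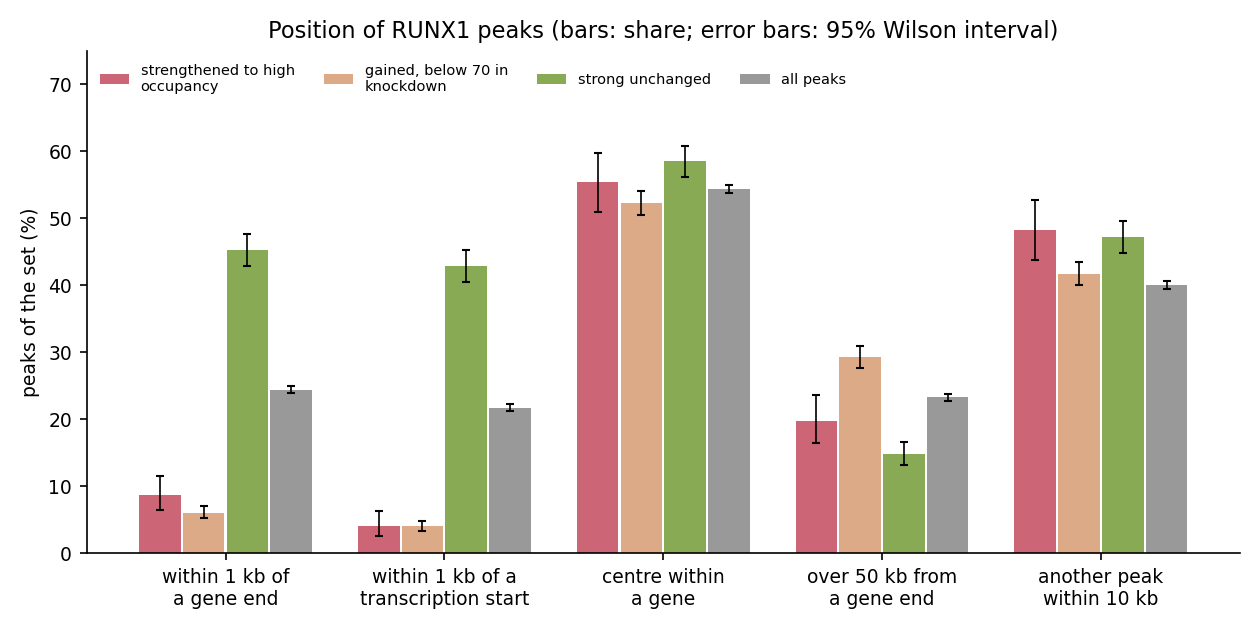
Share of peaks by position for the 475 strengthened sites, the 2916 gained peaks below 70 CPM in knockdown, the 1675 strong unchanged peaks and all 26642 peaks (vertical axis in percent of peaks, from 0; bars are shares and lines 95% Wilson intervals). At gene ends the strengthened sites reach 8.63%, next to 45.3% of strong unchanged peaks.

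Among the sites at gene ends, IMPDH2, the rate-limiting enzyme of guanine nucleotide synthesis, had the largest ratio of the 10 strongest. Its peak (chr3:49024757-49026411, 432 bases from an end of the gene and 4048 bases from the hairpin of MIR191) had 31.7, 37.8 and 42.8 CPM in control and 146, 153 and 194 CPM in knockdown libraries, a ratio of 4.22. GUCA2A, the gene of the gut peptide guanylin, had its far end under a peak of 29.8, 40.1 and 58.7 CPM in control and 115, 143 and 156 CPM in knockdown (chr1:42161697-42162756). A peak within GRAP2, an adaptor of T cell receptor and other immune receptor signalling, lay 349 bases from the start of TMA7B and went from 67.4 ± 10.6 to 155.8 ± 15.7 CPM. All 3 stood below the strong level of 70 CPM in control, and none had overlapping groups.

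The peak over the start of BST2, the interferon-induced antiviral factor tetherin, is also part of MVB12A, a subunit of the ESCRT-I sorting complex, and went from 95.6 ± 17.8 to 151.8 ± 9.06 CPM. The far ends of BEND3, a chromatin-bound repressor, and of PRCC, a nuclear protein linked to splicing, carried peaks that went from 75.3 ± 5.17 to 150.2 ± 19.6 and from 83.8 ± 10.2 to 142.9 ± 7.94 CPM. Others at gene ends were ZNF324 (71.6 to 125.4 CPM), EPHA2, a receptor tyrosine kinase of ephrins (69.9 to 123.1 CPM), and SLC9B1, a sodium-proton exchanger (72.8 to 115.3 CPM).

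The 475 sites lay within 252 distinct protein-coding genes or between genes, and 853 of the 16021 protein-coding genes with any peak within 50 kb of an end (5.32%) had a strengthened site in that distance. Lists of genes were read against that share. Of the megakaryocyte and platelet genes 3 of 16 had one, of RUNX factors and partners 2 of 11, of cytokine receptors and JAK-STAT genes 3 of 27, of BCL2 family genes 2 of 18, of lymphoid transcription factors 1 of 14, of stem and erythroid-megakaryocytic factors 1 of 16, of monocyte and macrophage genes 1 of 17, of autophagy genes 2 of 38, of T cell genes 0 of 20 and of neutrophil and granule genes 0 of 21. With so few genes a list, none is called apart from the background. Over all 26642 peaks DESeq2 called 21.3% gained and 20.7% lost, and beside these the peaks within 50 kb of the genes of each list were read. Counts for a list or for 1 of its genes include the strengthened sites there, all of which were called gained. It called 18 gained and 14 lost of 65 peaks at megakaryocyte and platelet genes, 12 and 14 of 54 at RUNX factors and partners, 21 and 28 of 121 at cytokine receptors and JAK-STAT genes, and 9 and 16 of 81 at BCL2 family genes. For transcription factors the counts were 8 and 10 of 51 at lymphoid and 12 and 10 of 57 at stem and erythroid-megakaryocytic factors. They were 7 and 18 of 52 at monocyte and macrophage genes, 14 and 18 of 67 at neutrophil and granule genes, 10 and 10 of 47 at T cell genes and 30 and 30 of 150 at autophagy genes.

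Of the genes of megakaryocytes and platelets, ITGB3, integrin β3 of the platelet fibrinogen receptor, held the site with the largest ratio. The site lay inside the gene (chr17:47257563-47258913) with 38.3, 45.5 and 59.6 CPM in control and 124, 134 and 167 CPM in knockdown libraries, a ratio of 2.98, and DESeq2 called 4 of the 5 peaks within 50 kb of ITGB3 gained and 0 lost. MYH9, the non-muscle myosin heavy chain of platelets, had 2 sites. The stronger, 35044 bases outside the gene, went from 56.0 ± 9.56 to 97.2 ± 12.1 CPM. PEAR1, a platelet aggregation receptor, had one 9463 bases away, within LRRC71, that went from 110.4 ± 24.2 to 196.7 ± 14.0 CPM. Of the 13 peaks near MYH9, 5 were called gained and 1 lost, and of the 6 near PEAR1, 5 and 0, against 21.3% and 20.7% of all peaks. The 3 genes are those of the list with a strengthened site, and these counts include the sites themselves. Over all 16 genes of the list with a peak, 18 of 65 peaks were called gained and 14 lost. Most of the lost peaks of the list thus lay near its other genes.

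Among the transcription factors, RUNX1 itself had a site within the gene, chr21:35045363-35047383 and 1919 bases from the annotated start of the gene, with 47.7, 52.8 and 65.1 CPM in control and 78.8, 95.8 and 102 CPM in knockdown libraries. Of the 7 peaks within 50 kb of RUNX1, 2 were called gained and 1 lost, and of the 9 near CBFA2T3, 4 and 3, against 21.3% and 20.7% of all peaks. CBFA2T3, a corepressor of the ETO family, had a site 33757 bases away, within GALNS (chr16:88839872-88841101), that was tightly grouped with 38.3, 41.0 and 43.4 CPM in control and 104, 115 and 119 CPM in knockdown libraries. FOXO1, a forkhead factor of B cell development, had 2 sites, of which the stronger, inside the gene, went from 49.0 ± 17.2 to 100.1 ± 11.4 CPM.

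Of the receptors and signalling genes, IL6R, the interleukin 6 receptor, held the strongest site (chr1:154444464-154446113), with 57.0, 78.6 and 102 CPM in control and 155, 165 and 209 CPM in knockdown libraries, a ratio of 2.17. IFNGR1, a chain of the interferon γ receptor, had a site 38486 bases outside the gene that went from 108.1 ± 11.4 to 165.9 ± 24.4 CPM, with ratios of 1.27 in batch 1 and 1.65 in batch 2. SOCS3, the inhibitor of JAK signalling induced by cytokines, had one that went from 55.6 ± 6.54 to 95.9 ± 18.6 CPM. CD86, a costimulatory ligand of antigen-presenting cells, held one that went from 49.0 ± 3.43 to 83.2 ± 12.9 CPM, and of its 5 peaks 2 were called gained and 2 lost. Proapoptotic members of the BCL2 family had moderate sites: BID went from 47.9 ± 9.30 to 77.3 ± 12.3 CPM and BIK from 56.9 ± 8.31 to 90.8 ± 14.3 CPM. Near the autophagy genes ULK1 and ATG4D, sites at MMP17 and S1PR5 went from 39.1 ± 7.78 to 76.0 ± 8.54 and from 56.5 ± 8.79 to 99.1 ± 8.57 CPM. At each of these sites the groups did not overlap.

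Another peak lay within 50 kb of 412 strengthened sites, and another strengthened site within 50 kb of 60. Strengthened sites were 475 of all 26642 peaks, so most neighbours of any peak are not strengthened sites. Whether the 60 differ from that background was not tested. Chained at 100 kb, the 475 sites formed 394 single places, 39 pairs and 1 group of 3. That group (chr9:135938950-136060821) held the UBAC1 site and 2 sites at NACC2, a BTB-domain corepressor, with ratios from 1.61 to 2.88, and all 4 peaks of the span were called gained. The pair at BMP8A and PABPC4 (chr1:39508627-39582529) had ratios of 1.95 and 1.997, with 2 of 4 peaks gained and 0 lost. The pair within AXIN1, a scaffold of the β-catenin destruction complex (chr16:327100-343648), had ratios of 1.53 and 1.58, with 2 of 3 peaks gained.

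The other peaks within 50 kb of a strengthened site numbered 1216, of which 319 (26.2%) were called gained and 205 (16.9%) lost, against 19.8% and 21.1% of all peaks that were not strengthened sites. Their median ratio was 1.07, against 0.995 for all peaks, and relative to the median of their own chromosome their median log2 fold change was 0.09. Neighbours share the libraries and regions of the sites, so these shares are a description. A lost peak lay within 50 kb of 164 strengthened sites and a gained one within 50 kb of 228, with 86 having both.

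Gain and loss could thus lie side by side. The 3 sites next to the lost peaks that were strongest in control were at NFYC, BMP8B and IL6R, all chosen after their values were seen. At NFYC, a subunit of the CCAAT-binding factor NF-Y, the strengthened site (chr1:40696981-40697826) went from 82.0 ± 19.7 to 152.2 ± 38.4 CPM, while a peak 3531 bases away (chr1:40690490-40693450) fell from 630.0 ± 57.6 to 484.7 ± 30.2 CPM (DESeq2 adjusted p = 4.74e-07). At BMP8B, a bone morphogenetic protein gene, the site went from 74.7 ± 24.1 to 132.0 ± 7.05 CPM and a peak 21659 bases away fell from 411.3 ± 34.1 to 370.7 ± 29.3 CPM (DESeq2 adjusted p = 0.0449). At IL6R a peak 36599 bases from the strengthened site (chr1:154404445-154407865) fell from 215.3 ± 17.03 to 164.5 ± 17.1 CPM (DESeq2 adjusted p = 7.05e-05). In these 3 places the lost peak was still the higher or, at IL6R, nearly the equal of the strengthened site in knockdown cells. NFYC and BMP8B are among the 28 strengthened sites where the groups overlapped. Control replicate 4 (117.4 and 123.8 CPM) passed the lowest knockdown library there (111.05 and 120.6 CPM).

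The share of strengthened sites was read for each chromosome, without a test, beside 475 of 26642 peaks in all. It was highest on chromosome 22, at 3.90% of 641 peaks (25 sites, 95% Wilson interval 2.66 to 5.69). Next came chromosome 21 at 3.14% (11 sites, a wide interval of 1.76 to 5.54) and chromosome 10 at 2.79% (35 sites, 2.02 to 3.86). It was 0.725% on chromosome 12 (8 sites, 0.368 to 1.42) and 0.309% on chromosome X (2 of 647, 0.0848 to 1.12). Chromosome Y held 0 among 46 peaks. Of the peaks of chromosome 22 with 70 CPM or more in knockdown, 32.9% (25 of 76) were strengthened sites. The median log2 fold change of all peaks also differed by chromosome, at 0.14 on chromosomes 22 and 10, 0.00 on chromosome 21 and -0.28 on chromosome 11. With the ratio of each peak divided by the median ratio of its chromosome, 490 peaks met the rule, of which 453 were among the 475. The count was then 19 on chromosome 22 (2.96% of its peaks) and 27 on chromosome 10 (2.15%), 11 on chromosome 21 as before, 24 in place of 11 on chromosome 11 (2.65%), and unchanged at 8 on chromosome 12 and 2 on chromosome X.

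**Figure D5:**
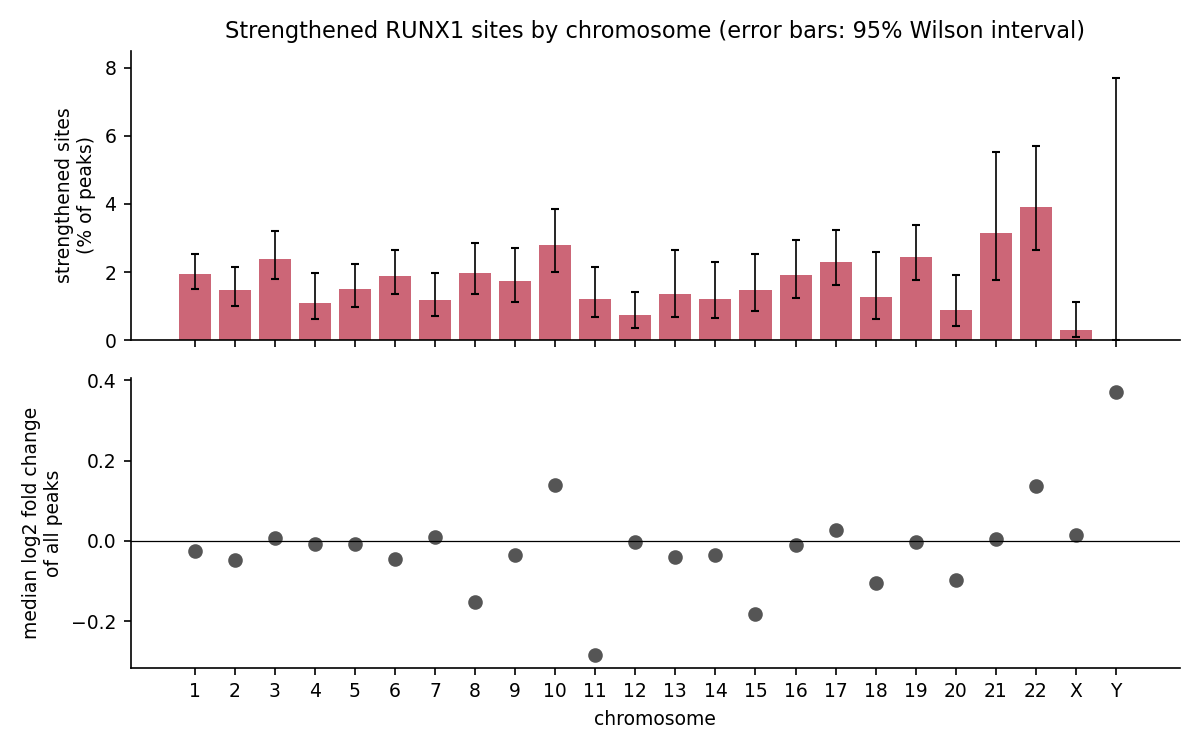
Strengthened sites as a share of the peaks of each chromosome (upper panel, percent, from 0, with 95% Wilson intervals) and the median log2 fold change of all peaks of the chromosome (lower panel). Chromosome 22 has the highest share at 3.90% (2.96% once centred), and its median fold change of 0.14 lies above 0.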

How the data were processed

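RUNX1 ChIP-seq was measured in 12 THP-1 libraries (6 control, 6 PU.1 knockdown, 2 batches). The deposited table gives unnormalised read counts for each peak, made by the authors with Bowtie2, SAMtools, MACS2, bedtools and featureCounts according to the submitters' processing notes. Per the study's methods, duplicates were removed and peaks were called per condition and batch, kept where reproducible and merged, so a peak had to be called in at least 1 condition. Peak coordinates and the peak length, the only other column the authors gave a value in, were used as given. The sources name both GRCm38 and GRCh38. The coordinates were matched to GRCh38 here, since 20.8% of peaks off chromosome 8 held a RefSeq transcription start and 1.47% to 1.96% did so when shifted by 10 kb or more.

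CPM were computed from each library's total over peaks. DESeq2 1.42.0 (batch and genotype, Benjamini-Hochberg adjustment, adjusted p under 0.05, fold change over 1.1) was fitted on all 26642 peaks in R 4.3.3, with edgeR 4.0.16 as the alternative. The fits were tested on simulated data. Alternatives were other scalings, thresholds, windows, a count filter, and each library left out. Replicate libraries differed by more than sampling noise (chi-square per degree of freedom of 1.29 to 2.24 over 30 pairs). Replicate numbers did not pair the samples: control replicate 3 is in batch 1 and knockdown replicate 3 in batch 2, and same-numbered libraries correlated between -0.06 and 0.17.

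Sites were named by fixed rules: the 10 highest in knockdown, the 10 largest ratios, the 5 highest in control, the 10 strongest within 1 kb of a gene end, the strongest within 50 kb of each list gene, the 3 places with most sites, and the 2 on either side of each threshold, of which 1 is not reported here. A site bears the name of the protein-coding gene that holds it or whose end is nearest. The members and lists were chosen with earlier results of these data known.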

Additional observations from a re-analysis of the deposited data

Results flagged for a closer look

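Single distant libraries were sought by Dixon's gap over range at the 95% level in 90 groups of 6 libraries. The groups were those of 44 of the named strengthened sites and of the share of reads in all 475. Chance flags about 1 in 20 groups, or 4.5 of 90, and 6 were found. At TMEM255B, knockdown replicate 3 had 431.4 CPM, with the other 5 knockdown libraries between 313.4 and 356.7 CPM. At IMPDH2, knockdown replicate 1 had 193.9 CPM, with the others between 146.1 and 162.4 CPM. In MVB12A, at the start of BST2, control replicate 2 had 130.1 CPM and the others 80.4 to 96.4 CPM. At EPHA2, control replicate 3 was low, at 54.9 CPM with the others from 70.2 to 75.1 CPM, and knockdown replicate 1 was low, at 111.05 CPM with the others from 123.6 to 128.5 CPM. At MYH9, knockdown replicate 1 was high, at 120.2 CPM with the others from 86.2 to 98.0 CPM. None of the 6 libraries crossed into the range of the other group, but no library did so at any of these 44 sites. The 44 leave out other named sites, among them BAHCC1, NFYC and BMP8B, where the groups overlapped.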

How the results depend on the processing

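The number of strengthened sites followed the thresholds: 193 with a ratio of 2 or more, 965 with a knockdown minimum of 50 CPM and 208 with one of 100 CPM, against 475. Other scalings, centrings and the rule in 1 batch gave 452 to 541, and leaving out each library 465 to 517. Gained peaks over the whole table (5666) became 3011 with a filter at 10 counts, 6428 with edgeR, and 4916 to 5435 with each library left out. With the replicate block the count was 4839, although the numbers do not pair the libraries. Peaks chosen in batch 1 and gained in batch 2 (394) were 348 to 386 with each library left out, and peaks chosen in batch 2 and gained in batch 1 (310) were 48 to 239. Sites at a gene end (41) became 106 within 5 kb, 84 with genes of any type and 18 with starts only. The batch terms gave 0 calls for the sites in every fit. Of 572 values of named ratios under alternatives, 565 moved by less than 1 SD, 7 moved by more and 0 reversed. Batch 1 held 2 knockdown libraries and batch 2 held 4. No genome was used, so motifs inside most peaks were not read.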

Other observations

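Strengthened sites lay near chromosome ends more often than the sets they were compared with, a measure chosen after the data were seen. Of the 475, 78 (16.4%, 95% Wilson interval 13.4 to 20.02) were within 5 Mb of the first base of a chromosome or of its last annotated gene, against 11.1% of all peaks, 12.2% of strong unchanged peaks and 10.8% of gained peaks below 70 CPM in knockdown. The difference was not tested. Hairpins of microRNAs lay within 10 kb of 11 sites. The same share over all peaks is not given, so this count is only a description. The nearest hairpin was MIR550A1, 2514 bases from a site at ZNRF2, a ubiquitin ligase, that went from 71.4 to 120.8 CPM. A site at PKNOX1, a TALE homeodomain factor, lay 7055 bases from MIR5692B and went from 56.6 to 113.0 CPM.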
